A study of Mus musculus with 14 samples.

Results

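Lipoprotein lipase (Lpl), its maturation factor Lmf1, the angiopoietin-like genes Angptl2 and Angptl4, the intracellular lipases Lipe and Pnpla2, and the lipoprotein receptors Vldlr, Lrp1, Lrp8 and Sorl1 were described in the hippocampus. The 10 genes were picked by symbol from 24421 genes in the count table. All 10 had enough reads to be tested, among 14897 genes tested in all. The authors depleted ribosomal RNA from hippocampal RNA, sequenced 1 library from each of 7 mice labelled LPAR2-/- and 7 wild-type (WT) mice, and counted reads per gene. All mice were males of the strain labelled 129.C57Bl6 and received no treatment. The LPAR2-/- mice lack a part of the coding sequence of Lpar2, the gene of lysophosphatidic acid receptor 2. The knockouts were bred as a homozygous colony beside a separate control colony on a mixed C57BL/6 and 129/SvJ background, so that genotype and colony cannot be told apart. Age and region are uncertain, since the labels state 10 to 12 weeks but the series text speaks of middle-aged to aged animals, and the study names the dentate gyrus in its results but the hippocampus in its methods.

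Lipoprotein lipase hydrolyses triglycerides in lipoproteins. It folds in the endoplasmic reticulum with the help of lipase maturation factor 1 (Lmf1), is secreted, and is inactivated by angiopoietin-like proteins such as Angptl4. In the brain it is made by neurons and glia, where lipid travels mainly on particles that carry apolipoprotein E. Receptors of the LDL receptor family (Lrp1, Vldlr, Lrp8) and the sorting receptor Sorl1 take up or route such particles, and Vldlr and Lrp8 are also the receptors of Reelin. Stored triglyceride inside cells is hydrolysed by Pnpla2 (adipose triglyceride lipase) and Lipe (hormone-sensitive lipase).

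The lipases and the Reelin receptors are shown by the coding stretches around their functional motifs. For the lipases, the capitals mark the 5 codons of a Gly-X-Ser-X-Gly motif, which holds the serine that attacks the ester bond. These stretches are given because Lpl differed between the groups and the intracellular lipases did not pass the test. They were read on the coding strand of the mouse genome (build GRCm38, the same as mm10, with the GENCODE M21 annotation). Lpl had 2 such matches in frame, and the match in exon 4, at chr8:68894642-68894704 on the plus strand, is shown. The Lipe stretch lies in exon 7 at chr7:25383613-25383675 on the minus strand, and the Pnpla2 stretch in exon 1 at chr7:141455395-141455457 on the plus strand.
Lpl: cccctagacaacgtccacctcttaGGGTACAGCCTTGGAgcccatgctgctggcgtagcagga
Lipe: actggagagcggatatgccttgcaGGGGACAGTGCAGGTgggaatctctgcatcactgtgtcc
Pnpla2: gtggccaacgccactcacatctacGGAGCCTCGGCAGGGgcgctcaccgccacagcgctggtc

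For Vldlr and Lrp8 the capitals mark the 4 codons of the Asn-Pro-X-Tyr motif of the cytoplasmic tail, to which the adaptor Dab1 binds. This pair is shown because the ratio of the 2 receptors separated the groups, although neither gene passed the test. The Vldlr stretch lies in exon 18 at chr19:27247916-27247975 on the plus strand, and the Lrp8 stretch in exon 17 at chr4:107869037-107869096 on the plus strand. They shared 45 of 60 bases (75.0%).
Vldlr: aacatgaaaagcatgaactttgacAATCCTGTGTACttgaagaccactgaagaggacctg
Lrp8: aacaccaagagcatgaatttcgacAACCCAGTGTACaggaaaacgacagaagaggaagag

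The libraries held 15434620 to 23258949 counts on genes, with a median of 19499276 in the mice labelled LPAR2-/- and 19964167 in WT mice. The targeted gene itself went against the label. Lpar2 had 144 to 234 counts in the libraries labelled LPAR2-/- and 27 to 66 in WT libraries, a log2 fold change of 2.01 (SE 0.157, adjusted p = 8.2e-07, edgeR's quasi-likelihood test with Benjamini-Hochberg adjustment, as for every adjusted p below). The counts per gene do not show which exons the reads fell on. Every direction below is that of the mice labelled LPAR2-/- relative to WT mice, and positive log2 values are higher in the former. A gene is said to have passed the test, or to have risen or fallen, at an adjusted p under 0.05. The markers of neurons summed to 12396 to 14410 CPM per mouse (reads of a gene scaled to a common library size). Those of blood summed to 1.02 to 3.14 CPM. This sum was Alas2 alone (17 to 73 counts), since the 4 globin genes had 0 counts in every library, so blood content cannot be read from it. The libraries of mouse 2 (choroid plexus) and mouse 3 (oligodendrocytes) labelled LPAR2-/- and of WT mouse 2 (CA1) had the highest sums of those markers.

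Of the 10 genes 2 rose, Lpl and Angptl2, and none fell, against 6.77% of all genes tested that passed in either direction and 3.32% and 3.46% that passed as higher and as lower. The groups of mice did not overlap for 1 of the 10, Lpl, against 1.77% of all genes tested. The other 8 genes had log2 fold changes between −0.15 and 0.07. By sign, 5 genes were higher and 5 lower, and the median log2 fold change of the 10 was −0.01, against 0.00 for all genes tested.

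**Figure D1:**
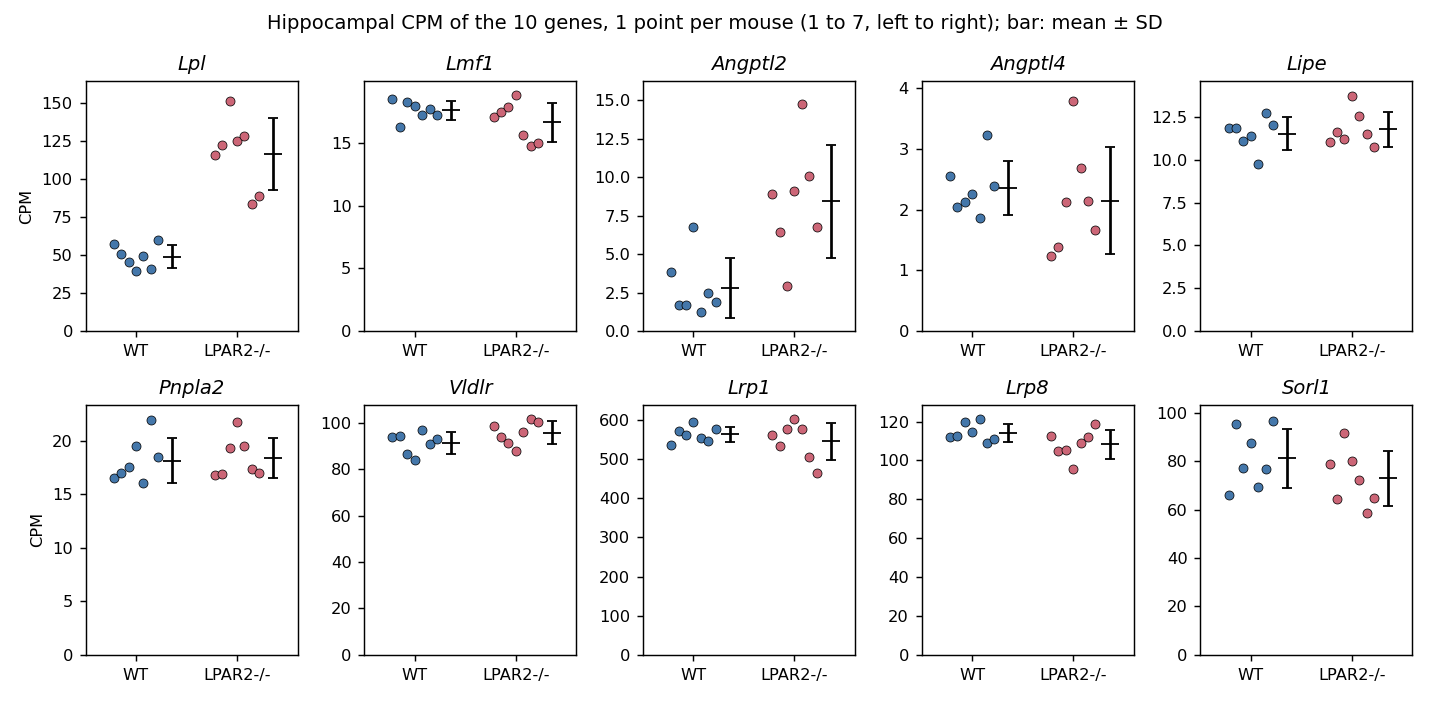
CPM (y axis, from 0) of the 10 genes in each of the 7 WT and 7 LPAR2-/- mice by label, 1 point per mouse, with bars for the mean ± SD. The points of Lpl separate by label (39.6 to 60.0 against 84.0 to 151 CPM), those of Angptl2 overlap in part, and those of the other 8 genes overlap.

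**Figure D2:**
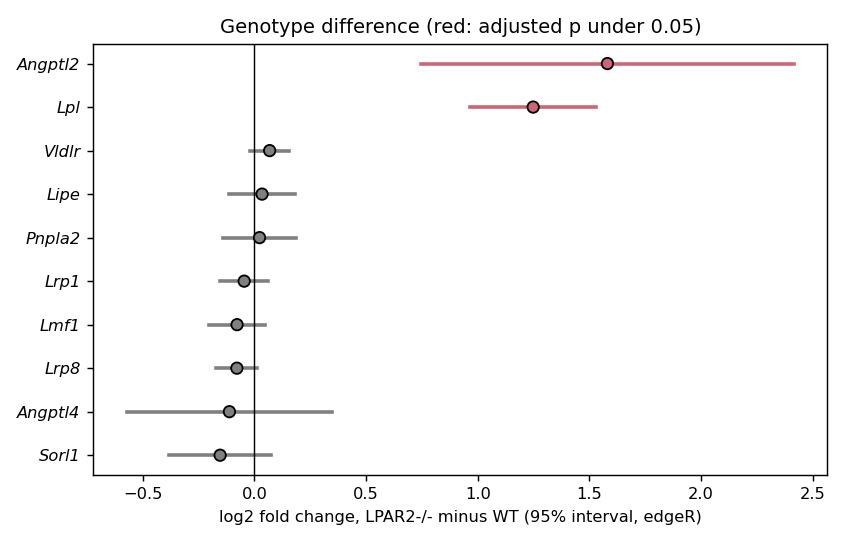
Log2 fold changes of the 10 genes (x axis, mice labelled LPAR2-/- minus WT, points) with their 95% intervals (lines), red where the adjusted p was under 0.05. The intervals of Lpl (0.97 to 1.53) and Angptl2 (0.74 to 2.42) lie above 0, and those of the other 8 genes include 0.

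Per kilobase of counted exon, which allows levels of different genes to be compared, Lrp1 led in WT mice with 37.8 ± 1.33 CPM per kb (SD, n = 7). Lrp8 (14.9 ± 0.593), Lpl (12.1 ± 1.93), Sorl1 (11.7 ± 1.74) and Vldlr (10.98 ± 0.552) followed, and each of these overlapped its neighbour in the order over the mice. Lmf1 (9.46 ± 0.404), Pnpla2 (6.68 ± 0.759) and Lipe (3.52 ± 0.289) were each apart from their neighbours. The angiopoietin-like genes were lowest, Angptl4 at 1.24 ± 0.235 and Angptl2 at 0.813 ± 0.567 CPM per kb, and they overlapped. In the mice labelled LPAR2-/-, Lpl came second (28.8 ± 5.78), and Angptl2 (2.45 ± 1.06) stood above Angptl4 (1.13 ± 0.462).

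Lpl, the secreted lipase (chr8:68880555-68906932, plus strand, 10 exons), was higher in every mouse labelled LPAR2-/- than in any WT mouse. The former had 84.0 CPM in the lowest, 123 in the median and 151 in the highest mouse, and the latter 39.6, 49.3 and 60.0 CPM. These values rest on 1388 to 3492 reads and on 659 to 1220 reads per mouse. The means were 117 ± 23.4 and 49.1 ± 7.82 CPM (SD, n = 7 each), a 2.38-fold difference (log2 fold change 1.25, SE 0.132, 95% interval 0.97 to 1.53, adjusted p = 8.6e-05). An exact two-sided permutation test gave p = 0.000583, the smallest that 3432 arrangements of 7 against 7 mice allow. By p, Lpl stood at rank 22 of all genes tested. Mice 6 and 7 labelled LPAR2-/- were the lowest of their group (84.0 and 88.8 CPM), and mouse 3 was the highest. In bulk tissue more cells of a type and more RNA per cell cannot be told apart.

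Microglia, astrocytes, neurons and adipocytes are known sources of Lpl, and their markers were read beside it. Of 10 microglial markers none passed the test, and their sum was 390 to 474 CPM in the mice labelled LPAR2-/- and 394 to 515 CPM in WT mice. Neither did any of 8 astrocyte markers (4829 to 5646 against 5001 to 5698 CPM) or 9 neuronal markers (12396 to 14410 against 12419 to 14124 CPM). The summed level of 6 markers of CA3 neurons was lower in the mice labelled LPAR2-/- (1266 to 1540 against 1416 to 1776 CPM, exact permutation test, two-sided p = 0.00641), but 1 gene, Nptx1, made up most of that sum (20382 to 30963 counts, against at most 1651 for any other). None of the 6 passed on its own, 2 of them had a positive log2 fold change, and the median was −0.06. Oligodendrocyte precursor markers were also lower in sum (178 to 241 against 210 to 253 CPM, exact permutation p = 0.0355). Of these 7, Gpr17 fell (log2 fold change −0.66, adjusted p = 0.00287), the others did not pass, and 3 had a positive log2 fold change. The 7 adipocyte markers had a higher sum in the mice labelled LPAR2-/-, at a very low level (1.09 to 1.46 against 0.851 to 1.30 CPM, exact permutation p = 0.0111). The only marker of these with enough reads to be tested, Retn, did not pass and had a log2 fold change of −0.06, and the others had 0 to 8 counts. Of 7 dentate granule cell markers, 6 had a positive log2 fold change and 1, Tdo2, passed the test (0.45, adjusted p = 0.0244). Their sums overlapped (808 to 1212 against 790 to 1168 CPM, exact permutation p = 0.666). Among mice labelled LPAR2-/-, mice 6 and 7, lowest in Lpl, had the highest sums, and mouse 3, highest in Lpl, the lowest. In WT mice the lowest sum was that of mouse 1 (Lpl at 57.7 CPM) and the highest that of mouse 6 (40.9 CPM). The part of these markers in the Lpl difference was not tested.

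Lpl lies on chromosome 8, 0.916 Mb from Lpar2 (chr8:69822565-69831102). Within 2 Mb of Lpl, 22 of 69 other genes tested passed (31.9%, 12 higher and 10 lower), against 6.77% of all genes. Within 1 Mb it was 8 of 20 (40%), and within 10 Mb 40 of 149 (26.8%). Beside these genes, Lpl had the 4th largest absolute log2 fold change within 2 Mb, after Lpar2, the iodide transporter Slc5a5 (−1.49) and the interleukin receptor chain Il12rb1 (1.45).

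The nearest genes tested did not pass. Ints10, a subunit of the Integrator complex 51.1 kb away, was at 104 ± 7.51 and 104 ± 8.24 CPM (log2 fold change 0.01, adjusted p = 0.946). Atp6v1b2, a subunit of the vacuolar proton pump 182 kb on the other side, differed by 0.07 on the log2 scale (adjusted p = 0.518). Lpl was flanked on either side by a gene whose levels overlapped between the groups.

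Next came genes that passed. Csgalnact1, an enzyme of chondroitin sulphate synthesis 145 kb away on the side of Ints10, differed by 0.50 on the log2 scale (adjusted p = 0.0378), and it passed in 5 of the 14 fits that left out a mouse. It did not pass with the replicate block (adjusted p = 0.0651), without the filter on low counts (0.0556) or with the meningeal covariate (0.40 on the log2 scale, adjusted p = 0.238). Lzts1, a postsynaptic density protein 229 kb away on the side of Lpar2, ranged from 27.7 to 39.0 CPM in the mice labelled LPAR2-/- and from 17.6 to 22.4 CPM in WT mice, with no overlap (log2 fold change 0.65, adjusted p = 0.000101). On the side away from Lpar2, 1 of 6 genes tested passed, and on the side of Lpar2 21 of 63 did, Lpar2 included. Of those 21, 11 were higher and 10 lower, and 16 did not overlap between the groups.

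Among the genes on the side of Lpar2, Zfp868 (log2 fold change 1.03), Pbx4 (0.80), Mau2 (0.60), Ssbp4 (0.52), Sugp2 (0.38), Zfp963 (0.31), Ifi30 (0.85) and Pik3r2 (0.17) were higher. Gm10033 (−0.85), 2310045N01Rik (−0.77), Ncan (−0.75), Tmem59l (−0.70), Upf1 (−0.34), Zfp869 (−0.33), Rfxank (−0.29) and Map1s (−0.25) were lower. The part of this chromosomal segment in the Lpl difference was not tested. Around the other 9 genes, the share of genes within 2 Mb that passed ran from 1.64% near Angptl2 (1 of 61) to 23.8% near Sorl1 (5 of 21). No nearest neighbour of any of the 10 genes, 20 in all, passed the test.

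**Figure D3:**
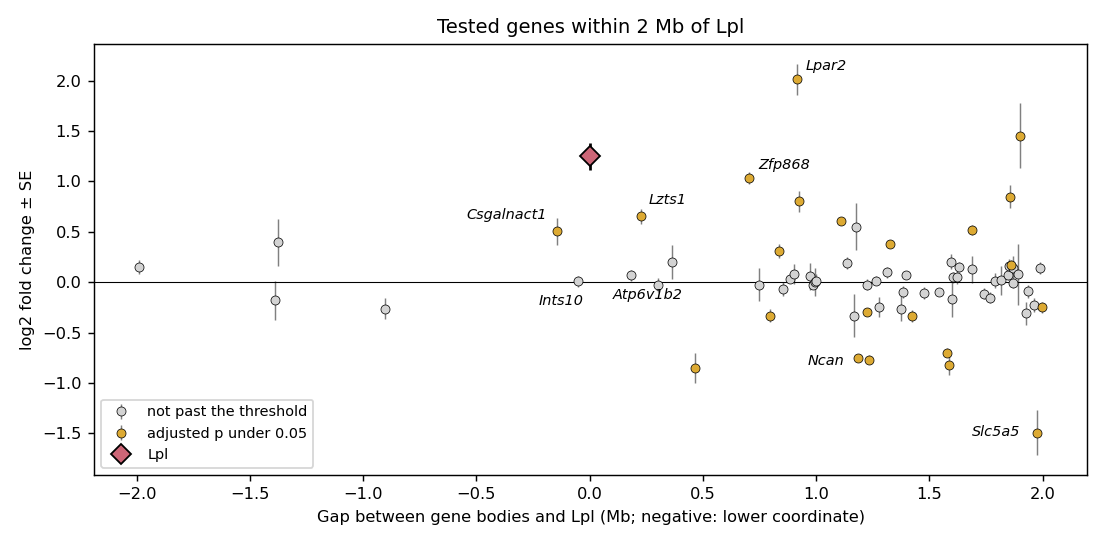
Log2 fold change (y axis, mice labelled LPAR2-/- minus WT, point ± SE) of the 69 genes tested within 2 Mb of Lpl by the gap between gene bodies (x axis, Mb, negative towards lower coordinates), with Lpl as a diamond and genes past the test in yellow. Yellow points are 21 of 63 on the side of Lpar2, in both directions, and 1 of 6 on the other side. The nearest genes on either side of Lpl, Ints10 and Atp6v1b2, are grey and near 0.

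Lmf1 (chr17:25579174-25662826, plus strand), the chaperone that Lpl needs to fold, did not pass the test. Mice labelled LPAR2-/- had 14.7 to 18.8 CPM (median 17.1) and WT mice 16.3 to 18.5 CPM (median 17.7). The log2 fold change was −0.08 (SE 0.0599, 95% interval −0.20 to 0.05, adjusted p = 0.470).

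Angptl4 (chr17:33774900-33781575, minus strand), the secreted inhibitor of Lpl, was sparse, with 24 to 88 reads per mouse. It ranged from 1.23 to 3.79 CPM (median 2.12) in the mice labelled LPAR2-/- and from 1.86 to 3.23 CPM (median 2.25) in WT mice. The WT range lay within that of the mice labelled LPAR2-/-, and the interval of the log2 fold change was wide (−0.11, SE 0.218, 95% interval −0.57 to 0.35, adjusted p = 0.809). Within each mouse, the log2 ratio of Lpl to Angptl4 was 5.76 ± 0.558 in the mice labelled LPAR2-/- and 4.33 ± 0.368 in WT mice (SD, n = 7 each). The difference of 1.43 had an exact two-sided permutation p of 0.000583 (0.00117 adjusted over the 4 ratios tested), and the groups did not overlap. Lpl alone gave the same permutation p without overlap, and Angptl4 did not pass, so the ratio largely repeats the difference in Lpl.

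Angptl2 (chr2:33215961-33247714, plus strand, 5 exons), an angiopoietin-like protein secreted into tissue and blood, rose by the larger fold but with more spread. In the mice labelled LPAR2-/- it ranged from 2.95 to 14.8 CPM with a median of 8.92 (68 to 281 reads), and in WT mice from 1.22 to 6.80 CPM with a median of 1.87 (25 to 136 reads). All 7 mice labelled LPAR2-/- were above the WT median, and 4 were above the highest WT mouse. The means of 8.44 ± 3.66 and 2.80 ± 1.95 CPM (SD, n = 7 each) gave a 2.99-fold difference (log2 fold change 1.58, SE 0.390, 95% interval 0.74 to 2.42, adjusted p = 0.0278), with an exact two-sided permutation p of 0.00408. The log2 ratio of Angptl2 to Angptl4 within a mouse was higher by 1.84 in the mice labelled LPAR2-/- (exact permutation p = 0.00291, 0.00389 adjusted over 4 ratios). Angptl2 lies within Ralgps1, a gene of the opposite strand, whose log2 fold change was 0.01 (adjusted p = 0.870). Reads were counted by strand.

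Markers of meningeal fibroblasts moved with Angptl2. Of 9 such markers, 8 had a positive log2 fold change and 1, the proteoglycan Lum, passed the test, and none was at 0 in any library. Their sum was 78.4 to 364 CPM (median 215) in the mice labelled LPAR2-/- and 60.6 to 230 CPM (median 94.3) in WT mice (exact permutation test, two-sided p = 0.0495). The mouse labelled LPAR2-/- with the lowest sum, mouse 3, also had the lowest Angptl2 of its group (2.95 CPM), and the WT mouse with the highest sum, mouse 4, had the highest Angptl2 of its group (6.80 CPM). The order did not match throughout, since WT mouse 2 had a sum of 150 CPM with Angptl2 at 1.68 CPM, and WT mouse 1 a sum of 88.8 CPM with Angptl2 at 3.83 CPM. The 8 markers of pericytes and smooth muscle, of which none passed the test and 5 had a positive log2 fold change, summed to 140 to 288 CPM (median 210) in the mice labelled LPAR2-/- and to 111 to 245 CPM (median 146) in WT mice (exact permutation p = 0.0816). The part of the pericyte and smooth muscle markers in the Angptl2 difference was not tested. With the mean log2 level of the meningeal markers as a covariate, the log2 fold change of Angptl2 was 0.70 (adjusted p = 0.121) and that of Lpl 1.40 (adjusted p = 0.000188). Angptl2 passed in 7 of the 14 fits that left out a mouse. Without mouse 1, 5 or 6 labelled LPAR2-/- its adjusted p was 0.0538, 0.0535 or 0.0504, and without WT mouse 2, 3, 5 or 6 it was 0.0640, 0.0556, 0.0577 or 0.0576.

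**Figure D4:**
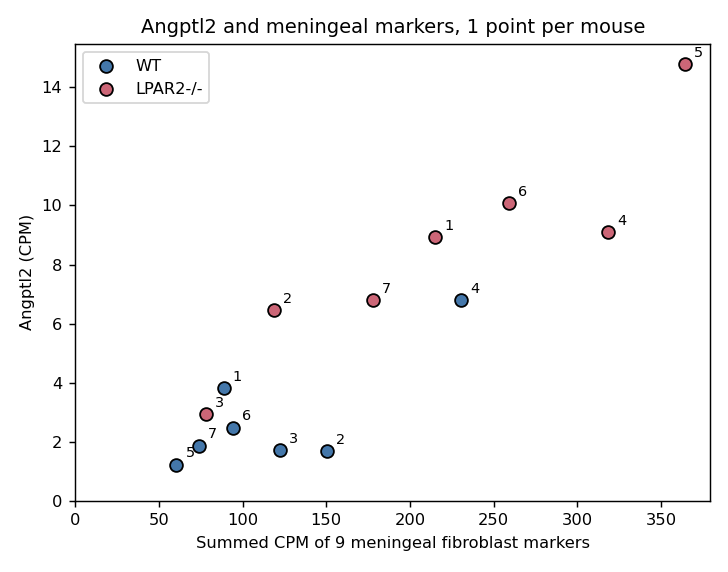
Angptl2 (y axis, CPM) against the summed CPM of 9 meningeal fibroblast markers (x axis), 1 point per mouse with its number, blue for WT and red for mice labelled LPAR2-/-. Mouse 5 labelled LPAR2-/- is highest on both axes (364 and 14.8 CPM), and WT mouse 5 is lowest on both (60.6 and 1.22 CPM).

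Neither lipase of the lipid droplet passed the test. Lipe (chr7:25379527-25395987, minus strand), hormone-sensitive lipase, ranged from 10.8 to 13.7 CPM (median 11.5) in the mice labelled LPAR2-/- and from 9.73 to 12.7 CPM (median 11.9) in WT mice. Its log2 fold change was 0.03 (SE 0.0699, 95% interval −0.11 to 0.18, adjusted p = 0.822). Lipe overlaps 4732471J01Rik on the opposite strand, which was at 0.05 on that scale (adjusted p = 0.726). Pnpla2 (chr7:141455188-141460743, plus strand), the enzyme of the first step of triglyceride breakdown, ranged from 16.8 to 21.8 CPM (median 17.3) and from 16.03 to 21.95 CPM (median 17.6), with a log2 fold change of 0.02 (SE 0.0781, 95% interval −0.14 to 0.19, adjusted p = 0.900). The log2 ratio of Lipe to Pnpla2 was −0.64 ± 0.0770 and −0.65 ± 0.122 (SD, n = 7 each), a difference of 0.01 (exact permutation p = 0.843).

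Of the receptors none passed the test. Lrp1 (chr10:127538158-127621148, minus strand), a large endocytic receptor of apolipoprotein E particles, was the most abundant of the 10 genes, with 464 to 601 CPM (median 560) in the mice labelled LPAR2-/- and 536 to 595 CPM (median 562) in WT mice. Its log2 fold change was −0.05 (SE 0.0515, 95% interval −0.16 to 0.06, adjusted p = 0.643). Sorl1 (chr9:41968489-42124289, minus strand), a sorting receptor that routes the amyloid precursor protein and binds Lpl, varied most among the receptors, from 58.4 to 91.6 CPM (median 72.2) and from 66.1 to 96.4 CPM (median 77.0). It had a log2 fold change of −0.15 (SE 0.107, 95% interval −0.38 to 0.07, adjusted p = 0.425).

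Vldlr (chr19:27217020-27254231, plus strand) ranged from 87.8 to 102 CPM (median 96.1) in the mice labelled LPAR2-/- and from 83.9 to 96.7 CPM (median 92.8) in WT mice, with a log2 fold change of 0.07 (SE 0.0417, 95% interval −0.02 to 0.16, adjusted p = 0.360). Lrp8 (chr4:107802259-107876840, plus strand) ranged from 95.6 to 119 CPM (median 109) and from 109 to 121 CPM (median 113), with a log2 fold change of −0.08 (SE 0.0436, 95% interval −0.17 to 0.01, adjusted p = 0.301). On their own, the 2 Reelin receptors overlapped between the groups.

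Their ratio within a mouse did not. The log2 ratio of Vldlr to Lrp8, whose tail motifs are printed above, was −0.18 ± 0.0395 in the mice labelled LPAR2-/- (range −0.24 to −0.12) and −0.33 ± 0.0945 in WT mice (range −0.47 to −0.25; SD, n = 7 each). The difference of 0.15 had an exact two-sided permutation p of 0.000583 (0.00117 adjusted over 4 ratios). When single mice were left out, the difference stayed at 0.12 to 0.16, with p no higher than 0.00233. How often the ratios of other gene pairs separate the groups was not examined, so this shift cannot be read as particular to this pair. Over the 14 mice, after removal of the group means, the 2 receptors had a correlation of 0.57, given as a description only.

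**Figure D5:**
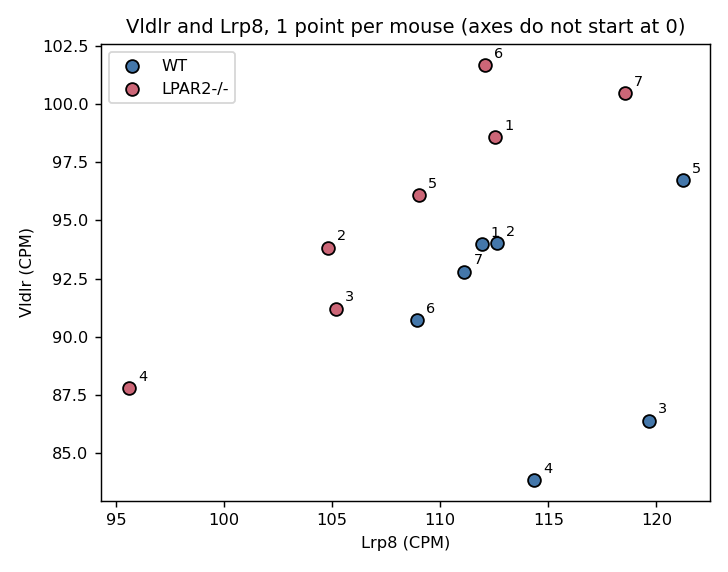
Vldlr (y axis, CPM) against Lrp8 (x axis, CPM), 1 point per mouse with its number, blue for WT and red for mice labelled LPAR2-/-; neither axis starts at 0. The groups overlap on each axis (Vldlr 83.9 to 96.7 and 87.8 to 102 CPM), but at a given level of Lrp8 the red points lie higher, and the log2 ratios separate (−0.24 to −0.12 against −0.47 to −0.25).

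How the 10 genes varied from mouse to mouse was described by correlations of log2 CPM over the 14 mice after the group means had been removed. All points share the library of a mouse, and no test was made. The highest values among the 45 pairs were those of Angptl4 with Pnpla2 (r = 0.80) and Lipe (r = 0.78) and of Lipe with Pnpla2 (r = 0.74), followed by Lrp1 with Sorl1 (r = 0.70). The lowest were those of Lipe with Lrp8 (r = −0.82) and Lmf1 with Vldlr (r = −0.72). Lpl and Angptl2, the genes that rose, had r = −0.36 within the groups and 0.62 over all mice.

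Over all 14 mice, the genes most like Lpl were Hdhd3 (r = 0.96), Serpina3h (0.96), Ocel1 (0.94), Vps33a (0.93) and Serpina3m (0.92), all of which also differed between the groups. After removal of the group means, they were Synj1 (r = 0.98), App (0.97), Scg5 (0.95), Pfkp (0.95) and Adam23 (0.95), none of which passed the test. The genes most like Angptl2 in this sense were Dse (0.93) and Sphk1 (0.92). For Lmf1 they were Rtn2 and Emc10 (both 0.87), for Angptl4 Nxn and Cyp4v3 (both 0.84), for Lipe 5031414D18Rik and Abcc4 (0.85 and 0.84) and for Pnpla2 Cd163 and Tll1 (both 0.86). Among the receptors, Vldlr was most like Smc2 (0.92) and Gid8 (0.89), Lrp1 most like Mafg and Mlxip (both 0.93), Lrp8 most like Chmp2b (0.91) and Clec5a (0.85), and Sorl1 most like Huwe1 and Ptch1 (both 0.96). Each is the highest of 14897 genes over few mice.

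Other genes of the same pathways were read from lists of 96 genes, of which 94 were in the table and 81 were tested. Of these 3 rose and none fell (3.7%, against 6.77% of all genes). Among the partners of Lpl (maturation, transport and inhibition), 0 of 9 genes tested passed, the most abundant being the syndecan Sdc3 (log2 fold change 0.03) and Sel1l (−0.14), which works with Lmf1 on newly made lipase. Gpihbp1, which carries Lpl across endothelium, had at most 1 count in any mouse. Apoc2, the cofactor of Lpl, had 0 counts in all mice, as did Apoc4 and Apoa5. Apoe was abundant, at 1144 ± 114 and 1120 ± 91.1 CPM (log2 fold change 0.03, adjusted p = 0.830).

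None of 4 VPS10 receptors related to Sorl1, among them Sort1 (log2 fold change −0.08), passed. None of 13 receptor partners passed, including Reln (0.09), the ligand of Vldlr and Lrp8, and Dab1 (−0.03), the adaptor of their tails. None of 16 genes of lipid droplet hydrolysis passed, nor did the other extracellular lipases and angiopoietin-like genes tested. Among 21 PPAR and LXR factors and targets, a group that includes known inducers of Lpl and Angptl4, Ucp2 and Srebf1 rose. Ucp2, a mitochondrial carrier, ranged from 29.1 to 39.6 CPM in the mice labelled LPAR2-/- and from 18.6 to 27.0 CPM in WT mice, with no overlap (log2 fold change 0.58, SE 0.0963, adjusted p = 0.00258). Srebf1, a regulator of lipid synthesis, had 56.9 ± 8.48 and 45.3 ± 3.61 CPM (log2 fold change 0.33, SE 0.0836, adjusted p = 0.0277), and it did not pass without mouse 4 or 5 labelled LPAR2-/- or without WT mouse 2, 5 or 6 (adjusted p up to 0.0660). Neither did it pass with the meningeal marker covariate (log2 fold change 0.27, adjusted p = 0.179) or without the 3 libraries named for their choroid plexus, oligodendrocyte and CA1 markers (adjusted p = 0.0581).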

How the data were processed

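Per the labels and the file header, trimming by the authors used cutadapt 1.18, alignment to mm10 used STAR, and exon reads of the reverse strand were summed by gene in featureCounts 1.6.3. The deposited values used here are these raw counts, without normalization. A deposited table of normalized values, made with DESeq2 1.22.2, was not used. The tools here were edgeR 4.0.16, limma 3.58.1 and DESeq2 1.42.0 under R 4.3.3. Genes that passed filterByExpr were normalized by TMM and tested with edgeR's robust quasi-likelihood F test, 7 mice against 7 without covariates, over the whole table, at a Benjamini-Hochberg adjusted p under 0.05. Single values and log2 ratios (prior count 2) went into exact permutation tests (two-sided). Depth was 15434620 to 23258949 counts per mouse. The members with the fewest reads, Angptl2 and Angptl4, had the largest standard errors (0.390 and 0.218 on the log2 scale). Each library is labelled as its own mouse. Library pairs within a group all differed beyond sampling noise (42 pairs, chi-square over its degrees of freedom at least 3.36). The procedure was tested on simulated data.

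Genes named were the 10 members, Lpar2, the nearest gene tested on either side of each member, genes within 2 Mb of Lpl past the threshold, genes with the most similar pattern, and genes of the pathway lists past the threshold with up to 3 abundant others per list. The members and lists were chosen with earlier results of these data known. Alternatives were other tests (DESeq2, limma), scalings and filters, a replicate block, a meningeal marker covariate, windows of 1 and 5 Mb, and each mouse left out. Annotated sequences were read from GRCm38, and no promoter sequence was printed. Some genes that the naming rule covers are not reported here, but they remain in the counts.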

Additional observations from a re-analysis of the deposited data

How the results depend on the processing

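Lpl kept its direction and its call in every alternative run, with log2 fold changes of 1.15 to 1.40 (adjusted p up to 0.00209) and of 1.18 to 1.31 with each mouse left out. Angptl2 lost its call with the meningeal covariate (log2 fold change 0.70, adjusted p = 0.121), so that 1 of the 10 genes passed, and with 7 mice left out in turn, so that between 1 and 2 passed. That covariate also turned the sign of Lipe (−0.042) and Pnpla2 (−0.047), which had not passed. With each mouse left out, Lipe ran from −0.0054 to 0.058, Pnpla2 from −0.022 to 0.072 and their log2 ratio from −0.012 to 0.040. The cause was not tested. Of the pathway genes 3 passed in the fit reported, between 1 and 5 with each mouse left out (1 without mouse 4 or 5 labelled LPAR2-/- or WT mouse 2, 5 or 6, and 5 without mouse 6 labelled LPAR2-/- or WT mouse 1), and 1 without the 3 libraries that stood out in choroid plexus, oligodendrocyte and CA1 markers, a choice made after seeing the data. Windows of 1 and 5 Mb around Lpl held 8 and 39 genes past the test. Over all genes, 1009 passed with edgeR (3340 at an unadjusted p under 0.05), 1393 with DESeq2, 309 with the meningeal covariate, 558 without the 3 libraries and 567 to 1385 with each mouse left out. Upper quartile scaling moved the split from 494 higher and 515 lower to 616 and 377. Correlations of same-numbered mice ran from −0.33 to 0.31, with 3 of 7 above 0.1. They were not compared with those of differently numbered mice, so a pairing by mouse number was neither shown nor excluded. With the number as a replicate block 586 genes passed, Lpl (log2 fold change 1.24, adjusted p = 0.00209) and Angptl2 (1.63, adjusted p = 0.0339) passed, and no call among the 10 genes changed. Angptl4 rests on 24 to 88 reads per mouse, and its interval covers a fold change in either direction, as do those of the other 7 members that did not pass.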
